A study of Mus musculus with 8 samples.

Results

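Immunoglobulin light chain variable segments are the germline gene pieces from which the antigen-binding end of the antibody light chain is assembled. They were chosen as every row of the expression table whose identifier carries a symbol starting with Igkv (kappa) or Iglv (lambda) in the GENCODE M21 annotation of the GRCm38 mouse genome, which gave 163 of 54018 rows. The 8 libraries were made from polyadenylated RNA of splenic mononuclear cells of leukaemic C57BL/6 mice, and all carried Eµ-TCL1A, a transgene that drives the human TCL1A oncogene in B cells and models chronic lymphocytic leukaemia. In 4 libraries (genotype Kdm1aKD;Eµ-TCL1A, here called knockdown, replicates 1, 2, 5 and 4) the mice also carried a doxycycline-inducible knockdown of Kdm1a, a histone lysine demethylase. The other 4 (Eµ-TCL1A, here called control, replicates 1 to 4) carried the oncogene alone, and the labels do not say whether these mice received doxycycline or how old any mouse was. Nothing in the labels says that each library came from its own animal, so spreads and p-values are between libraries. The unit is FPKM: fragments counted on a transcript, divided by its length in kilobases and by the library's total.

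Each B cell joins 1 kappa or lambda variable segment to a short joining segment beside a constant gene, and usually keeps a single productive light chain. All cells descended from it carry the same join, so the segment that leads in a clonal B cell population marks the clone. In the mouse kappa is the usual choice and lambda is a small minority, and the Eµ-TCL1A leukaemia is known to arise largely from CD5+ B-1 cells, a lineage with a restricted set of variable segments. Among these, Igkv14-126 together with the heavy chain segment Ighv11-2 is the known pairing of B-1 cells that bind phosphatidylcholine.

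The kappa rows numbered 160, in 20 families, and lay on chromosome 6 from 67555497 to 70704177, ahead of the kappa constant gene Igkc at 70726435 to 70726966. The lambda rows numbered 3 and lay on chromosome 16 from 19085017 to 19260859. Of the 163 rows 103 are annotated as functional and 60 as pseudogenes. The joining segments and the end of the variable segment form the third antigen-contact loop, so the last 60 bases of the 3 kappa segments that led a library are shown, 5′ to 3′ along the gene, with capitals from the codon of the conserved second cysteine to the end of the germline segment. They were read from the GENCODE M21 transcripts and lie at chr6:67896583-67896642 on the plus strand for Igkv14-126, chr6:68121768-68121827 on the plus strand for Igkv1-117 and chr6:68834846-68834905 on the minus strand for Igkv12-89.
Igkv14-126: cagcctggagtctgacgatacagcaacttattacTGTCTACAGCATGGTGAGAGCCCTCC
Igkv1-117: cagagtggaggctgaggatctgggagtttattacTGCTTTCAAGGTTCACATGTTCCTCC
Igkv12-89: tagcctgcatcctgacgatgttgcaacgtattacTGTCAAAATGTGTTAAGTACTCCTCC
The capitals mark 26 bases in each. Over their last 280 bases Igkv12-89 and Igkv14-126 were 73.7% identical in a global alignment, while Igkv1-117 was 60.7% identical to Igkv14-126 and 59.1% to Igkv12-89.

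The lambda segments Iglv1 and Iglv2 are near copies: over their last 280 bases they were 97.5% identical, with 7 differing bases. The last 150 bases of each hold 5 of these differences, set in capitals, and lie on the minus strand at chr16:19085017-19085166 and chr16:19260401-19260550.
Iglv1: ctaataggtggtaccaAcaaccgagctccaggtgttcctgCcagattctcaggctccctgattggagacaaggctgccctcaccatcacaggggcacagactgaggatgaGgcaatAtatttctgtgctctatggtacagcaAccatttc
Iglv2: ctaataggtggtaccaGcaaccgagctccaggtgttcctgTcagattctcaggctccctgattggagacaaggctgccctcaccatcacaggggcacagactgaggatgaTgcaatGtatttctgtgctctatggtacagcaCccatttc
Of all 50-base windows in the Iglv1 transcripts 22.2% also occur in Iglv2, so the split of FPKM between these 2 segments depends on how the authors' counting shared such fragments, and is uncertain. The span of Iglv1 also overlaps that of another annotated gene, 2010309G21Rik, and how the authors' counting separated the 2 is not known. Iglv3 differs clearly and was 51.0% identical to Iglv1. Among the kappa segments described here, Igkv8-28 was 97.5% identical to Igkv8-19 and Igkv1-117 was 96.8% identical to Igkv1-110, and both near copies stayed under 1% of light chain variable FPKM in every library. Igkv14-126 and Igkv12-89 had no copy closer than 90.7% (Igkv14-111) and 85.7% (Igkv12-46).

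Few segments carried most of the signal in each library. In 6 of 8 libraries 1 segment held more than 50% of the summed light chain variable FPKM, and 5 different segments led. The 3 highest segments together held 79.7%, 74.5%, 85.1% and 72.9% in knockdown replicates 1, 2, 5 and 4, and 88.2%, 80.4%, 95.2% and 96.1% in control replicates 1 to 4, so that the groups overlapped. Only 11 of the 163 segments reached 5% in any library. The lowest of these was Igkv4-91 at 7.0%, and the highest segment outside was Igkv6-15 at 4.31% in control replicate 1.

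**Figure D1:**
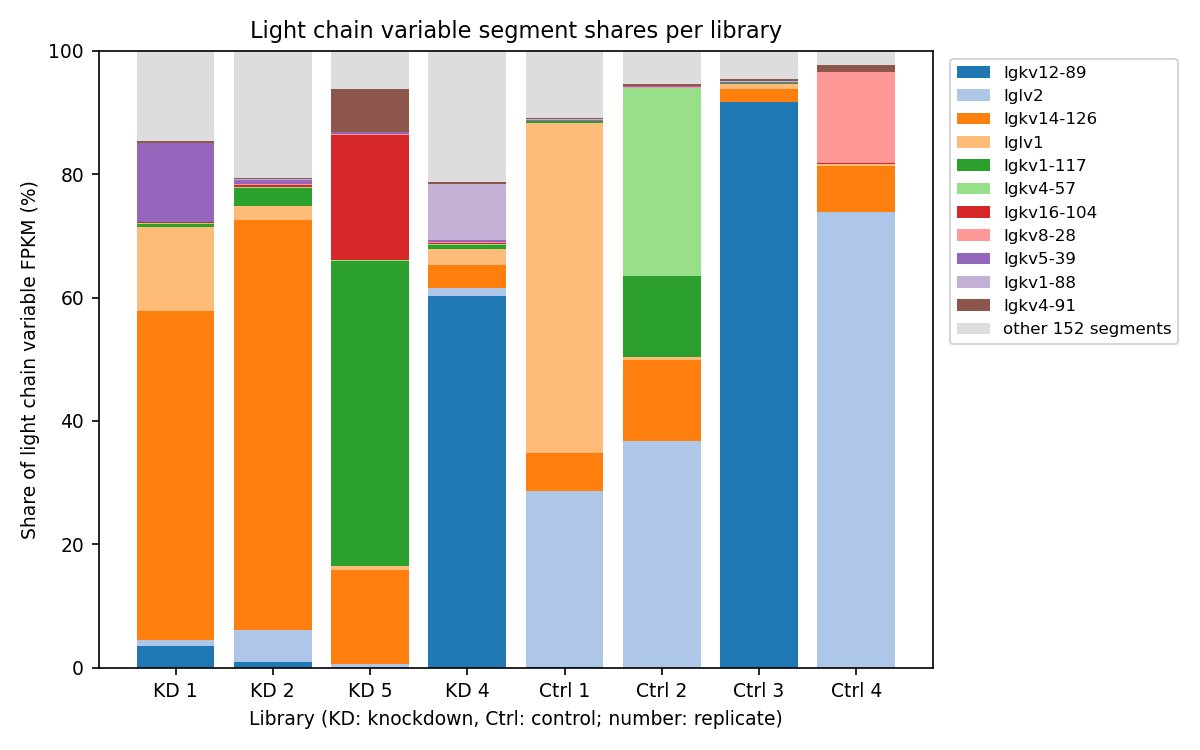
Stacked bars give the share of summed light chain variable FPKM (%, vertical axis) of the 11 segments that reached 5% in a library and of the other 152 together, for each of 8 libraries (horizontal axis; KD, knockdown; Ctrl, control). Igkv14-126 led knockdown replicates 1 and 2, Igkv12-89 led knockdown replicate 4 and control replicate 3, and lambda segments led the other 3 controls.

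Igkv14-126, the kappa segment of the phosphatidylcholine-binding pairing, led knockdown replicates 1 and 2 with 53.4% and 66.3% of light chain variable FPKM. Its level was 9840, 7848, 1657 and 222 FPKM in knockdown replicates 1, 2, 5 and 4, and 1699, 1942, 422 and 1186 FPKM in control replicates 1 to 4. It was the only one of the 5 leading segments to hold at least 2.1% in every library, and knockdown replicates 1 and 2 stood above all others while knockdown replicate 4 was the lowest of the 8. The groups overlapped, and the log2 difference of knockdown minus control, on log2(FPKM + 1), was 1.03 ± 1.09 (SE, n = 4 per group; adjusted p = 0.623 in limma). Leaving out knockdown replicate 1, 2 or 4 gave 0.33, 0.44 or 2.15, leaving out control replicate 3 gave 0.55, and none of these passed the test.

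Igkv12-89 led 1 library of each group, with 60.2% in knockdown replicate 4 and 91.6% in control replicate 3, the highest share of any segment in any library. Its FPKM was 647, 102, 2.70 and 3664 in knockdown replicates 1, 2, 5 and 4, and 30.8, 6.38, 18316 and 2.71 in control replicates 1 to 4. Both groups thus ran from 2.7 FPKM to at least 3664 FPKM, and the log2 difference was 1.46 ± 2.79 (SE; adjusted p = 0.796 in limma). Igkv1-117 led knockdown replicate 5 with 49.5%, at 5371 FPKM. The second highest Igkv1-117 level was in control replicate 2, at 1945 FPKM or 13.2%, and the other 6 libraries had between 8.80 and 334 FPKM.

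The lambda segments led 3 of 4 control libraries and no knockdown library. Iglv1 held 53.5% in control replicate 1, and Iglv2 held 36.7% in control replicate 2 and 73.8% in control replicate 4. The FPKM of Iglv1 was 2520, 277, 67.9 and 164 in knockdown replicates 1, 2, 5 and 4, and 14936, 56.3, 161 and 45.6 in control replicates 1 to 4. Its 2 highest values thus lay in 1 library of each group, and its log2 difference was 0.08 ± 1.78 (SE; adjusted p = 0.986 in limma), which became −0.09 with median-of-ratios scaling. Iglv2 had 177, 628, 59.6 and 84.4 FPKM in knockdown replicates 1, 2, 5 and 4, and 7990, 5396, 24.6 and 11638 FPKM in control replicates 1 to 4. In 3 control libraries it was above every knockdown library, but control replicate 3 was the lowest of all 8. The log2 difference of Iglv2 was −3.61 ± 1.76 (SE; adjusted p = 0.295 in limma). Without control replicate 3 it was −5.68 (adjusted p = 0.0388), and without any one of the other 7 libraries it ran from −4.28 to −2.74 with adjusted p of 0.33 to 0.515.

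Iglv3, the third lambda segment, was even across the libraries, with 71.2, 67.0, 44.6 and 33.6 FPKM in knockdown replicates 1, 2, 5 and 4 and 55.0, 37.5, 54.7 and 26.5 FPKM in control replicates 1 to 4. Its groups overlapped and its log2 difference was 0.31 ± 0.31 (SE; adjusted p = 0.600 in limma). Iglv3 thus never exceeded 0.57% of light chain variable FPKM.

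Another 6 kappa segments reached 5% in a single library each, beside its leading segment. Igkv16-104 had 2204 FPKM (20.3%) and Igkv4-91 760 FPKM (7.0%) in knockdown replicate 5. Igkv5-39 had 2340 FPKM (12.7%) in knockdown replicate 1, and Igkv1-88 had 549 FPKM (9.02%) in knockdown replicate 4. Igkv4-57 had 4482 FPKM (30.5%) in control replicate 2, and Igkv8-28 had 2325 FPKM (14.7%) in control replicate 4. In their 7 other libraries each, Igkv16-104, Igkv5-39, Igkv1-88, Igkv4-57 and Igkv8-28 were all below 75 FPKM, and Igkv4-91 ran from 21.9 to 181 FPKM. None of the 6 passed the test, and their adjusted p in limma ran from 0.190 to 0.865. Without knockdown replicate 5 the log2 difference of Igkv16-104 was 1.98 in place of 3.60 and its adjusted p was 0.0313.

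**Figure D2:**
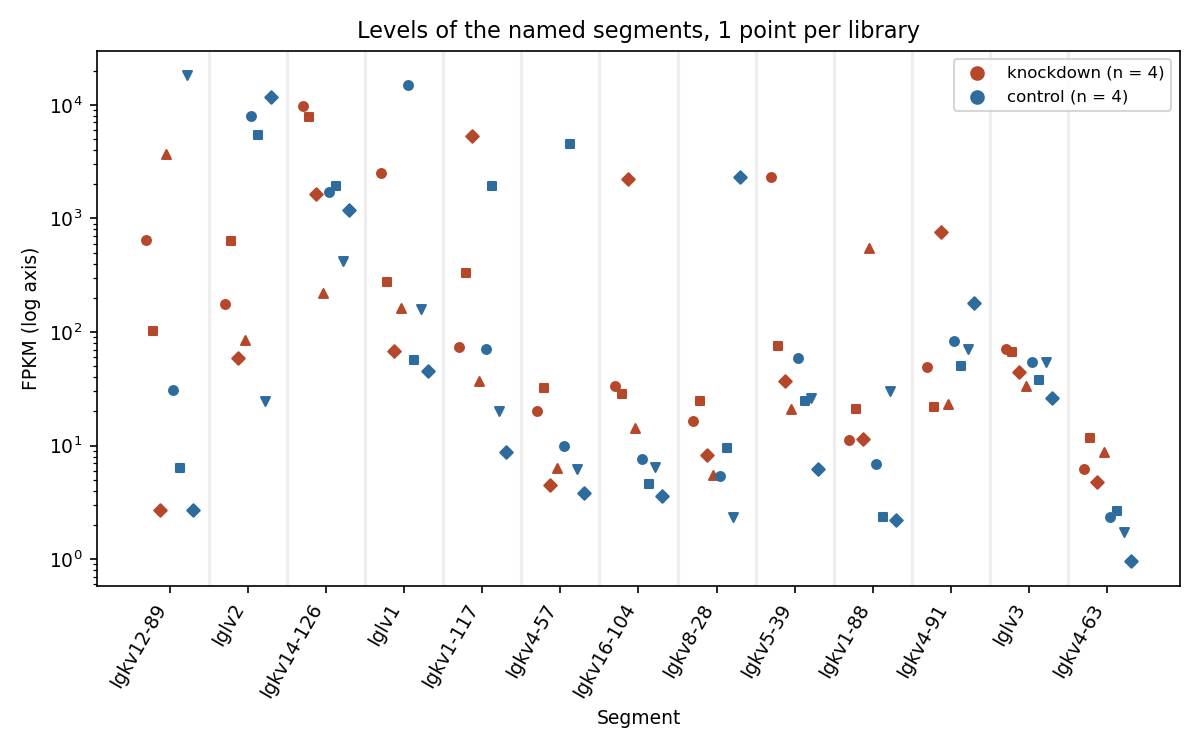
FPKM (vertical log axis) of the 11 segments that reached 5% in a library, of Iglv3 and of Igkv4-63 (horizontal axis), with 1 point per library in the order knockdown replicates 1, 2, 5 and 4, then control replicates 1 to 4 (4 libraries per group). The leading segments span several powers of 10 within each group, whereas Iglv3 stays between 26.5 and 71.2 FPKM.

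The share of lambda differed widely among the controls. It was 15.0%, 8.22%, 1.59% and 4.64% of light chain variable FPKM in knockdown replicates 1, 2, 5 and 4, and 82.3%, 37.3%, 1.20% and 74.3% in control replicates 1 to 4. Of the controls 3 lay above all knockdown libraries and the fourth, control replicate 3, below all of them. The means were 7.37 ± 5.78% in knockdown and 48.8 ± 37.3% in control (SD, n = 4 each).

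The constant genes, which are not among the variable segments, gave a second readout. The lambda constant genes Iglc1 to Iglc4 held 24.7%, 22.2%, 14.8% and 15.3% of the FPKM of these genes and Igkc in knockdown replicates 1, 2, 5 and 4, and 82.0%, 44.1%, 14.5% and 79.0% in control replicates 1 to 4. The order of the libraries at both ends was that of the variable share, with control replicate 1 highest and control replicate 3 lowest. The means, 19.2 ± 4.95% in knockdown and 54.9 ± 31.9% in control (SD, n = 4 each), differed by −35.7 percentage points. A two-sided exact permutation test over 70 assignments gave p = 0.143, where 0.0286 is the smallest it can give. Without control replicate 3 the difference was −49.1 points and the exact p = 0.0286, again the smallest possible, while leaving out any one of the other 7 libraries gave an exact p of 0.143 to 0.2.

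**Figure D3:**
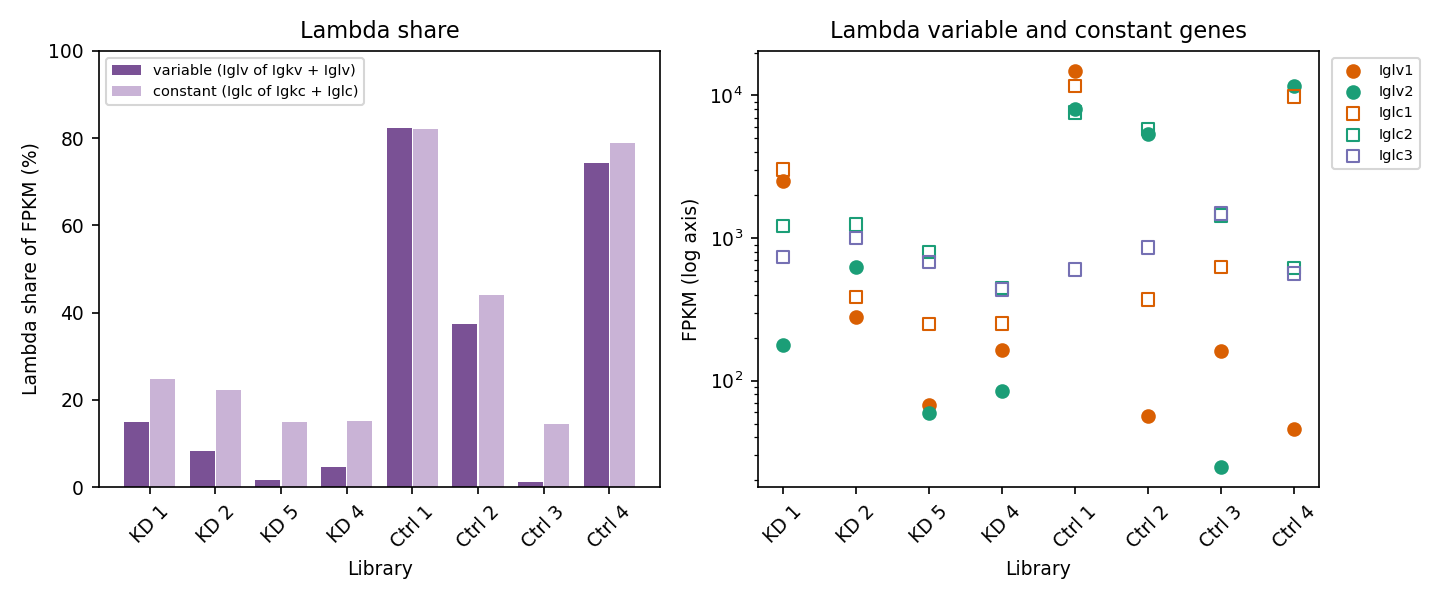
Left, the lambda share (%) of variable FPKM (dark) and of constant gene FPKM (light) in each library; right, FPKM (log axis) of Iglv1, Iglv2 (filled circles) and Iglc1, Iglc2 and Iglc3 (open squares). Control replicates 1, 2 and 4 stand above the other 5 libraries in both shares, and Iglv2 lies beside Iglc2 in control replicate 2 but beside Iglc1 in control replicate 4.

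Each lambda constant gene has its own joining segment, and in the order of transcription the locus reads Iglv2 (ending at 19260859), Iglv3, Iglc2 (19198396 to 19200351), Iglc4 (19194999 to 19195312), Iglv1 (from 19085017), Iglc3 (19065230 to 19065681) and Iglc1 (19061618 to 19062071). The constant gene that was high beside Iglv2 was not the same in each library. In control replicate 2, Iglv2 at 5396 FPKM stood beside Iglc2 at 5808 FPKM, with Iglc1 at 371. In control replicate 4, Iglv2 at 11638 FPKM stood beside Iglc1 at 9846 FPKM, with Iglc2 at 618. In control replicate 1 both pairs were high, Iglv1 at 14936 FPKM with Iglc1 at 11612, and Iglv2 at 7990 with Iglc2 at 7612. In knockdown replicate 1 Iglv1 at 2520 FPKM stood beside Iglc1 at 3029.

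Transcripts of Iglc1 and Iglc2 share no 50-base window, while 10.7% of the windows of Iglc3 also occur in Iglc2. Iglc3 stayed between 435 and 1482 FPKM in all 8 libraries and Iglc4 between 0.932 and 7.73 FPKM. In the 2 libraries with the least lambda variable signal the constant genes were far above it. Lambda variable over lambda constant FPKM was 0.0994 in knockdown replicate 5 and 0.0675 in control replicate 3. It was 0.556, 0.370 and 0.249 in knockdown replicates 1, 2 and 4, and 1.16, 0.779 and 1.06 in control replicates 1, 2 and 4. For kappa the same ratio lay between 0.923 and 1.38 in all 8 libraries. Igkc had 15201, 9230, 9943 and 6286 FPKM in knockdown replicates 1, 2, 5 and 4, and 4346, 8919, 20924 and 2938 in control replicates 1 to 4, so the groups overlapped. All 10 joining segments, Igkj1 to Igkj5 and those of lambda, were listed at 0 in every library. Of the 5 constant genes tested (Igkc and Iglc1 to Iglc4) none passed, 4 of 5 log2 differences were negative, and the smallest adjusted p in limma was 0.144, for Iglc4.

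Summed light chain variable FPKM was 18437, 11829, 10847 and 6085 in knockdown replicates 1, 2, 5 and 4, and 27923, 14710, 19988 and 15769 in control replicates 1 to 4. The means were 11800 ± 5087 in knockdown and 19597 ± 6000 in control (SD, n = 4 each), and the groups overlapped through knockdown replicate 1. The B cell markers moved with it at its low end: the mean log2(FPKM + 1) of Ms4a1, Cd79a, Cd79b, Pax5 and Cd22 was 6.91 in knockdown replicate 4, between 8.35 and 8.42 in the other 3 knockdown libraries and between 8.48 and 8.68 in the controls, so that all knockdown libraries lay below all controls. The erythroid level, over 6 genes including Hbb-bs and Alas2, was 9.80 in knockdown replicate 4 and between 4.81 and 7.65 in the other 7 libraries, and its part in the result was not tested. In bulk RNA, fewer B cells and less RNA per B cell cannot be told apart. Kappa alone summed to 10751 ± 4028 FPKM in knockdown and 9492 ± 7199 in control, and lambda alone to 1049 ± 1200 and 10105 ± 9781 (SD, n = 4 each).

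The share of the leading segment was 57.4 ± 7.44% in knockdown and 63.9 ± 23.9% in control (SD, n = 4 each). The effective number of segments, 1 over the sum of squared shares, was 3.10, 2.24, 3.17 and 2.67 in knockdown replicates 1, 2, 5 and 4 and 2.67, 3.81, 1.19 and 1.75 in control replicates 1 to 4. Control replicate 3, led by Igkv12-89, was the least and control replicate 2, with Iglv2, Igkv4-57, Igkv14-126 and Igkv1-117 each above 13%, the most even, so that the controls enclosed the whole knockdown range.

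The leading heavy chain segment, as a share of summed Ighv FPKM, was Ighv11-2 in knockdown replicates 1 and 2 (40.9% and 37.5%), the libraries led by Igkv14-126. Ighv1-55 led in knockdown replicate 4 and control replicate 3 (61.6% and 89.2%), the libraries led by Igkv12-89, and also in control replicate 1 (52.1%), which was led by Iglv1. Ighv1-52 led in knockdown replicate 5 (66.8%), Ighv2-5 in control replicate 2 (59.4%) and Ighv5-16 in control replicate 4 (82.3%). In control replicate 1, Ighv5-16 was the other large segment with 23.0%. These pairs of leading segments are within libraries, and which heavy and light chains share a cell was not measured.

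By family, Igkv14 ran from 2.30% of light chain variable FPKM in control replicate 3 to 66.9% in knockdown replicate 2, and Igkv12 from 0.245% in control replicate 4 to 92.1% in control replicate 3. Summed over libraries, Igkv14-126 made up 98.6% of its family and Igkv12-89 96.7%. Igkv4, the largest family with 33 rows, held 0.635% to 33.5%, with the highest value in control replicate 2 through Igkv4-57. Igkv3 with 13 rows never exceeded 3.39%, and the single-row families Igkv7, Igkv18 and Igkv20 stayed at or below 0.0131%. Igkv14 and Igkv12 have 8 and 12 rows.

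Along the kappa locus, the 53 rows farthest from Igkc held 68.9%, 85.7%, 88.6% and 11.03% of kappa variable FPKM in knockdown replicates 1, 2, 5 and 4, and 42.4%, 44.2%, 3.45% and 33.3% in control replicates 1 to 4. They include Igkv14-126, Igkv1-117 and Igkv16-104. The middle 53 rows include Igkv12-89 and held 76.7% in knockdown replicate 4 and 93.7% in control replicate 3. The 54 rows nearest to Igkc held from 2.15% to 60.7%, the latter in control replicate 4 with Igkv8-28. By orientation, 85 rows lie on the strand opposite to Igkc, where joining inverts the DNA between, and 75 on the same strand, where it deletes it. Igkv14-126 and Igkv1-117 are on the same strand and Igkv12-89 on the opposite one, and rows of the opposite strand held 11.2% of kappa variable FPKM in knockdown replicate 5 and 94.9% in control replicate 3. In control replicate 1 the highest kappa segment was Igkv14-126, yet the rows nearest to Igkc held 48.5% and those of the opposite strand 57.2%. By position and by strand the shares overlapped between the groups.

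**Figure D4:**
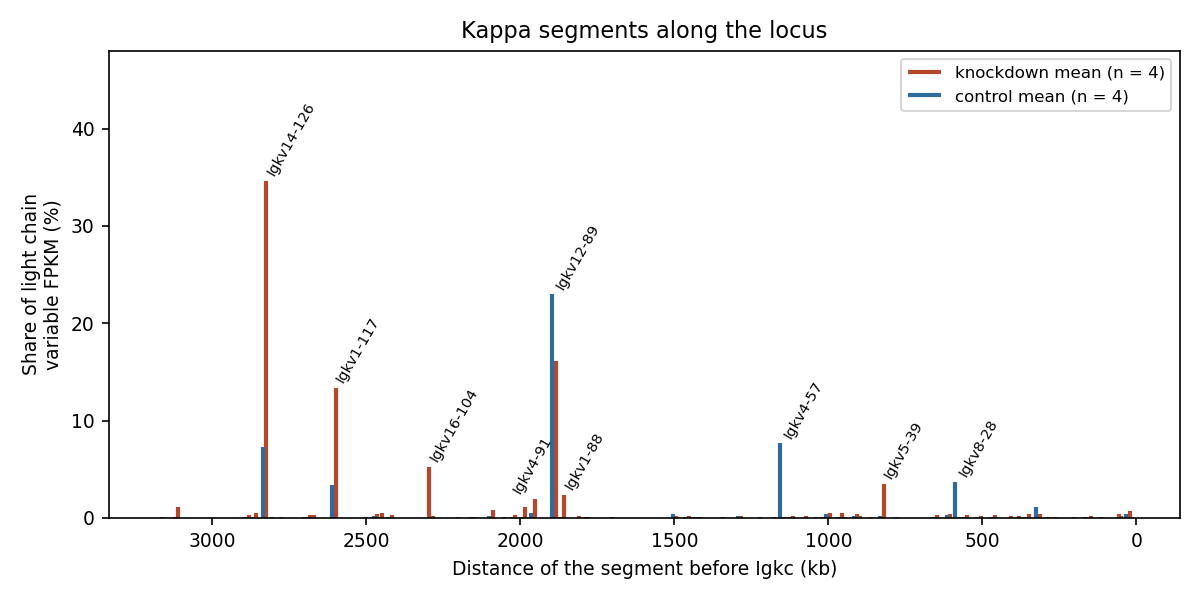
Mean share of light chain variable FPKM (%, vertical axis) of each of 160 kappa rows, by distance before Igkc in kb (horizontal axis), in knockdown and control (4 libraries each). A few segments of at least 5% in some library stand out, and the means hide single libraries: the control bar of Igkv12-89 comes from control replicate 3, which had 91.6%.

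Beneath these segments lay a broad background of segments that stayed under 5% in every library. Of all 163 rows 27 were at 0 in every library, 136 were above 0 in at least 1 and 56 reached 1 FPKM in every library. The test needed at least 1 FPKM in at least 4 libraries, which 89 rows passed (82 functional, 7 pseudogenes). The 47 others above 0 were not tested, and of these 23 reached 1 FPKM somewhere, with a highest value of 14.1 FPKM. The smallest values above 0, 0.105 to 0.177 FPKM per library, limit what could be seen of rare segments.

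The summed FPKM of the 152 segments under 5% was 2708, 2437, 664 and 1294 in knockdown replicates 1, 2, 5 and 4, and 3023, 790, 902 and 366 in control replicates 1 to 4. Control replicate 1, the highest, held 1203 FPKM of Igkv6-15 alone. The median FPKM of the 78 tested segments among them was 18.1, 16.1, 4.08 and 8.89 in knockdown replicates 1, 2, 5 and 4, and 6.50, 4.19, 4.76 and 1.96 in control replicates 1 to 4. Thus 3 knockdown libraries were above every control by this median, and knockdown replicate 5 was lower than 3 of the 4 controls. As a share of light chain variable FPKM these segments held 14.7%, 20.6%, 6.12% and 21.3% against 10.8%, 5.37%, 4.51% and 2.32%, and the groups overlapped.

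Igkv4-63 was the only one of the 89 tested segments called by limma, 1 higher and 0 lower in knockdown, beside 1.63% of all 12890 genes tested called higher and 0.109% called lower. At an unadjusted p under 0.05 there were 36 of 89, beside 19.2% of all genes, and 33 of them were higher, beside 15.8%. Igkv4-63 had 6.16, 11.5, 4.78 and 8.78 FPKM in knockdown replicates 1, 2, 5 and 4, and 2.33, 2.68, 1.74 and 0.955 FPKM in control replicates 1 to 4. All knockdown libraries lay above all controls. The means were 7.82 ± 2.99 and 1.93 ± 0.754 FPKM (SD, n = 4 each), and the log2 difference was 1.57 ± 0.29 (SE; adjusted p = 0.031 in limma). This call held without knockdown replicate 1 or 5 and was lost without any one of the other 6 libraries, with adjusted p of 0.0285 to 0.143 over these 8 fits. It was also lost with quantile normalization, with a pseudocount of 5 and with no filter.

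Of the 89 tested segments 76 had a positive log2 difference of knockdown minus control and 13 a negative one, with a median of 1.06, where the median over all 12890 genes was 0.13. With median-of-ratios scaling these medians were 0.94 and −0.02. Among the 71 functional segments tested that stayed under 5%, 67 differences were positive. Over all 12890 genes tested 8207 were positive. The segments spread more between libraries of a group than most genes: their median residual SD was 0.99 on the log2 scale against 0.34 for all genes, and 3.13 for the 11 segments of at least 5%.

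The groups did not overlap for 7 segments. Knockdown was higher for 6, Igkv1-135, Igkv11-125, Igkv16-104, Igkv19-93, Igkv4-63 and Igkv3-5, beside 11.2% of all genes tested, and lower for 1, Igkv12-47, beside 1.9%. Igkv1-135, a functional segment far from Igkc, had 135, 292, 51.6 and 47.7 FPKM in knockdown replicates 1, 2, 5 and 4 and 30.7, 15.9, 21.5 and 13.8 FPKM in control replicates 1 to 4, with a log2 difference of 2.29 ± 0.54 (SE; adjusted p = 0.073 in limma). Igkv12-47, a pseudogene, had 0.768, 0.512, 0.532 and 0.481 FPKM in knockdown and 1.48, 5.0, 3.03 and 11.5 FPKM in control, in the same order, with a log2 difference of −1.74 ± 0.42 (SE; adjusted p = 0.076). These 2 were chosen for this description after their values were seen. All knockdown values of Igkv12-47 were under the 1 FPKM of the filter, so it was tested only through its control values. Its lack of overlap is thus a description and no support for a fall. Of the 7 pseudogenes tested 5 had negative differences, with a median of −1.20. Among them, Igkv1-108 and Igkv2-107 reached 1 FPKM in knockdown only in replicate 5, at 4.25 and 1.73 FPKM. They too passed the filter mostly through their control values, so this count is a description as well.

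Single libraries decided these counts. Without knockdown replicate 5, the knockdown library with the lowest sum of segments under 5%, 33 of 87 segments lay higher in knockdown without overlap, beside 15.9% of all genes, and limma called 10 of 87 higher, beside 1.46%. They included Igkv4-63 and Igkv16-104, and the smallest adjusted p, 0.0268, belonged to Igkv2-137, Igkv6-17 and Igkv3-10. Without control replicate 1, 20 of 85 segments lay higher without overlap, beside 15.2% of all genes. By the sum of segments under 5%, knockdown replicate 5 was the lowest knockdown library and control replicate 1 the highest control. Higher counts without them thus follow in part from that choice and are a description. Leaving out any other single library gave 6 to 9 segments without overlap in either direction, and limma called 0 or 1.

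**Figure D5:**
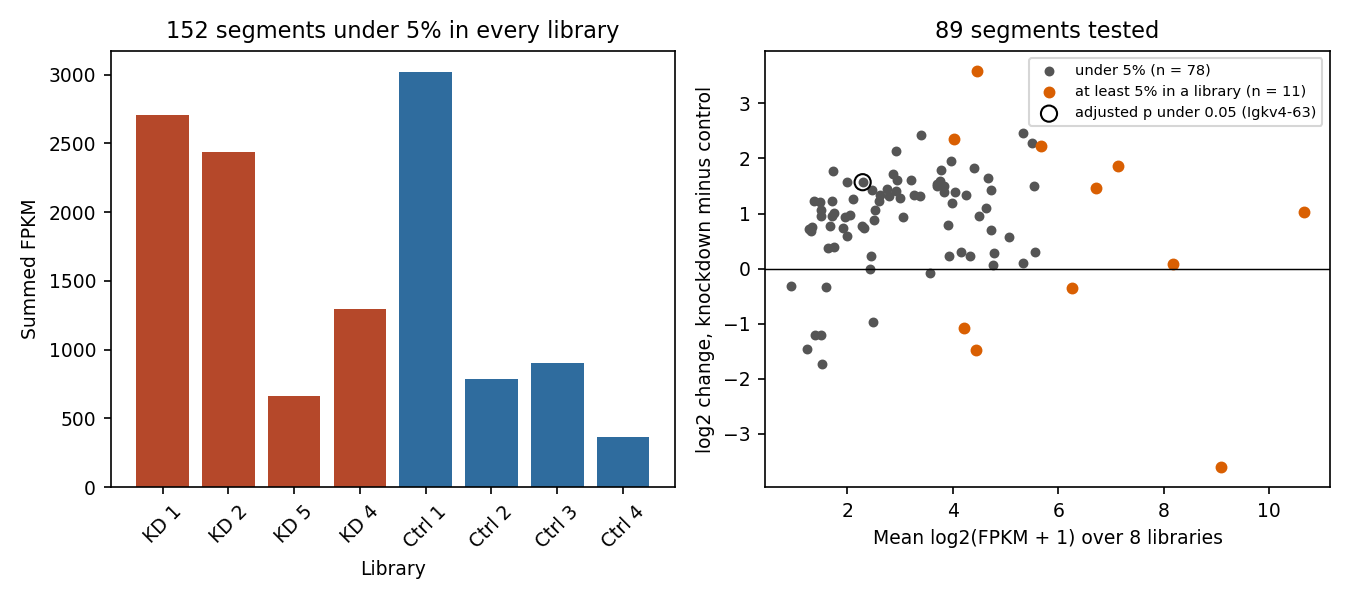
Left, summed FPKM of the 152 segments under 5% in every library, per library (red, knockdown; blue, control); right, the log2 difference of knockdown minus control against the mean log2(FPKM + 1) for the 89 segments tested, with those of at least 5% in a library in orange and Igkv4-63, the one called, circled. Most points, 76 of 89, lie above 0, beside 8207 of 12890 over all genes tested, while the library sums of the groups overlap.

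The relative levels of the 78 tested segments under 5% were compared between libraries. Across segments the median Spearman correlation was 0.80 over the 6 pairs of knockdown libraries, 0.61 over the 6 pairs of controls and 0.68 over the 16 pairs between groups. This is a description with no test, and segments of 1 library share its depth and cells.

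Markers of other cells also differed between libraries. The T cell level (mean log2(FPKM + 1) of 7 genes including Cd3e and Trac) was 5.70, 5.49, 4.601 and 4.50 in knockdown replicates 1, 2, 5 and 4 and 5.53, 4.47, 4.62 and 3.92 in control replicates 1 to 4. The 3 libraries with the highest sums of background segments also had the highest T cell levels. By the median of the tested background segments the order differed. Knockdown replicate 4, at 8.89 FPKM, lay above control replicate 1, at 6.50, though its T cell level was lower. All 7 T cell genes had positive and all 5 B cell genes negative differences, and none was called. The level of the 8 plasma cell genes was 4.24 to 5.23 in knockdown and 5.10 to 6.27 in control, and 0 of 8 were called, with 8 negative differences and a median of −0.94. Derl3, which acts in disposal of misfolded secretory proteins, had the smallest adjusted p among them in limma, 0.106. The level of the 6 monocyte and macrophage genes was 4.23 to 5.14 in knockdown and 3.26 to 4.22 in control, and 0 of 6 were called, with 6 positive differences. Of 5 neutrophil genes tested 3 were called lower in knockdown (Camp, Ngp and Ltf). All knockdown values of Camp were under the 1 FPKM of the filter. Ngp reached it only in knockdown replicate 4 and Ltf only in knockdown replicate 1. These 3 genes thus passed the filter mostly through their control values, so their calls are a description and no support for a fall. Of 4 megakaryocyte genes 2 rose (Pf4 and Itga2b). The other megakaryocyte genes were not called and went in opposite directions, with log2 differences of 0.78 for Gp9 and −0.63 for Ppbp. The part of these cell types in the result was not tested.

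Genes that make, edit or use light chains did not pass the test. In recombination and editing 0 of 9 tested were called and 4 of 9 differences were positive, and Rag1 and Rag2, the recombinase that joins segments, stayed at or below 0.437 and 0.148 FPKM. Lig4, the ligase of that joining, had 4.23, 4.14, 4.44 and 1.75 FPKM in knockdown replicates 1, 2, 5 and 4 and 8.64, 8.78, 4.10 and 8.52 FPKM in control replicates 1 to 4 (adjusted p = 0.166 in limma). In somatic hypermutation 0 of 6 were called and all 6 differences were positive with a median of 0.34. Of the surrogate light chain genes, which stand in for the light chain in pre-B cells, only Vpreb3 was high enough to be tested, with 7.82 to 42.6 FPKM and overlapping groups.

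Among the regulators of the kappa locus 0 of 14 were called, and 11 differences were negative, with a median of −0.55. Pou2af1, a coactivator of immunoglobulin promoters, had 170, 152, 119 and 63.7 FPKM in knockdown replicates 1, 2, 5 and 4 and 182, 183, 175 and 281 FPKM in control replicates 1 to 4. Its groups did not overlap and its adjusted p in limma was 0.234. Of the receptor complex and its proximal signalling 0 of 9 were called, 8 differences were negative, and Plcg2, the phospholipase behind the receptor, had 66.6, 67.9, 69.1 and 23.4 FPKM in knockdown against 90.6, 111, 90.4 and 129 in control (adjusted p = 0.172). Of the 4 B-1 cell genes none was called, 3 differences were negative, and that of Spn was positive (0.45). Their mean log2(FPKM + 1) was 4.95 to 5.96 in knockdown and 5.66 to 6.19 in control, so the groups overlapped. The smallest adjusted p of the 4 in limma, 0.158, belonged to Bhlhe41, a transcription factor of B-1 cells. It had 10.3 to 37.1 FPKM in knockdown and 48.4 to 57.6 in control.

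Kdm1a itself had 20.2, 21.04, 15.6 and 15.5 FPKM in knockdown replicates 1, 2, 5 and 4 and 24.2, 21.2, 24.1 and 31.1 FPKM in control replicates 1 to 4, a knockdown mean of 71.9% of control (adjusted p = 0.223 in limma). Estimated depth was 37500000 to 43800000 fragments, and light chain variable segments took 0.831% to 3.98% of all FPKM. Xist, expressed from the inactive X of females, was at 94.9 FPKM or more in all knockdown libraries and control replicate 1 and at 0.128 or less in the other 3 controls, so that group and sex cannot be told apart beyond that 1 library. Control replicate 1 had the highest lambda share of all libraries, 82.3%, and also the highest sum of segments under 5%, 3023 FPKM. The part of sex in these values was not tested.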

How the data were processed

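A NovaSeq 6000 was used, per the labels' protocols. The values were FPKM, as the authors deposited them in 1 table of 8 libraries. CASAVA and Cufflinks were used, per the submitters' processing notes, which give no versions. Which aligner, build, annotation and strand setting were used is not given in the sources used here. A read over a joined segment can be lost or shared among near copies, and an exact 0 can be a failed estimate. The table holds no counts, so depth was estimated from steps between low values, of which 81.5% to 96.3% lay within 5% of a whole multiple, and it limits the precision of low segments.

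Identifiers were named by GENCODE M21 (53865 of 54018), from which the coordinates and sequences come. The groups and replicate numbers come from the labels. Knockdown and control were compared on log2(FPKM + 1), so folds of low segments are understated, for genes reaching 1 FPKM in 4 or more libraries, with limma 3.58.1 (mean-variance trend, R 4.3.3) and Benjamini-Hochberg adjustment over 12890 genes at 0.05. The fit was tested on simulated data. The constant gene share was compared by an exact permutation test, and sums and shares over segments carry no p. Members, lists and tests were chosen with earlier results of these data known.

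Named segments were those of at least 5% in a library, all lambda rows and those called. Other genes were all constant and joining genes and up to 4 members of smallest p per list. Some list genes are not reported here and were left out of the lists. Alternatives changed the pseudocount, filter, scaling, weights, replicate block and libraries. A search of promoters for the octamer motif was planned and not run. Alignments used Biopython 1.88, and tables and plots Python 3.11.15, pandas 2.3.3, numpy 2.4.6, scipy 1.17.1 and matplotlib 3.10.9.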

Additional observations from a re-analysis of the deposited data

Results flagged for a closer look

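In 4 of 42 groups of 4 libraries examined, 1 library stood apart from the other 3 of its group. Its gap was above Dixon's 95% limit for its share of the group's range. The groups covered segment levels as log2(FPKM + 1), and library sums, shares, effective numbers and Igkc without a log. All 4 groups flagged were segment levels. Chance marks about 1 in 20 groups, but that rate does not apply here: Igkv16-104, Igkv1-88 and Igkv4-57 were named because they reached 5% in a single library, so their values are a description. Iglv2 in control was lowest in control replicate 3, at 4.68, where the other 3 lay between 12.40 and 13.51. Igkv16-104 in knockdown was highest in knockdown replicate 5, at 11.11, where the others lay between 3.94 and 5.12. Igkv1-88 in knockdown was highest in knockdown replicate 4, at 9.10, where the others lay between 3.604 and 4.46. Igkv4-57 in control was highest in control replicate 2, at 12.13, where the others lay between 2.27 and 3.44.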

How the results depend on the processing

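The count of segments called, 1 as reported, was 15 with array weights (14 higher, 1 lower), 2 with a pseudocount of 0.1, and 0 with a pseudocount of 5, no filter, a mean of at least 5 FPKM, quantile normalization, the replicate block and both replicate 4 libraries left out (added after seeing the data). Leaving out 1 library at a time gave 0 to 10. The count over all genes, 224, was 761 with array weights, 60 without both replicate 4 libraries, 71 at a mean of at least 5 FPKM, 148 with median-of-ratios scaling, 2 with no filter, 24 with a pseudocount of 5, 126 with quantile normalization and 0 with the replicate block, and 6 to 216 with 1 library left out. Segments without overlap, 7, numbered 6 to 36 with 1 library left out. The difference in constant gene lambda share ran from −49.1 to −26.6 points with 1 library left out, and with the replicate block its exact p was 0.25, the smallest possible there.

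Replicate numbers 1, 2 and 4 occur in both groups, and the deviations of same-numbered libraries correlated at 0.163, 0.047 and −0.118. The labels do not say that the numbers pair libraries. Low correlations cannot show that such libraries were handled apart. With the block the log2 difference of Igkv1-117, 1.86, was −0.18. The log2 difference of Iglv1 was −0.091 with median-of-ratios scaling. With 1 library left out, log2 differences changed sign for Iglv1 (−0.95 to 1.98), Igkv4-91 (−1.52 to 0.16), Igkv12-89 (−0.0083 to 4.18), Igkv4-57 (−2.44 to 0.85) and Igkv8-28 (−2.07 to 1.07). That of Igkv14-126 ran from 0.33 to 2.15. The cause was not tested. Of 274 alternative values 223 kept direction and side of the threshold, or moved by less than the spread between libraries, 31 fell short of a threshold passed before or gave fewer calls, 7 passed one or gave more calls, 11 log2 differences changed sign and 2 values moved further. Some that moved by less than the spread also changed sign. The difference in leading segment share, −6.54 points, was 2.70 without control replicate 3 and 5.32 with the block. That in effective number, 0.443, was −0.071 with the block.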
